A study of Saccharomyces cerevisiae with 12 samples.

Results

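The 7 histidine synthesis genes HIS1, HIS2, HIS3, HIS4, HIS5, HIS6 and HIS7 were followed across the 6 genotypes of a budding yeast RNA-seq study. They were taken by gene symbol from the deposited table, where each symbol stands once among 7126 listed genes, and all 7 passed the filter on low values that left 6583 genes for testing. The strains were Saccharomyces cerevisiae of CEN.PK background: the double deletions cho2set2 and opi1set2, the single deletions set2, cho2 and opi1, and wild type (WT), with 2 libraries each. Cells of every group had been moved out of rich lactate medium (YPL) and kept for 1 h in minimal lactate medium (SL) before RNA was taken, so no group shows the cells before the switch. The labels give no parent strain, no marker gene used for the deletions and no number of clones.

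Yeast makes histidine from phosphoribosyl pyrophosphate and ATP in a chain of enzyme steps. HIS1 encodes ATP phosphoribosyltransferase, which starts the chain and is inhibited by histidine. HIS4 encodes a multifunctional enzyme for the second, the third and the final reactions, HIS6 an isomerase, HIS7 a glutamine amidotransferase and cyclase whose reaction also releases the purine intermediate AICAR, HIS3 a dehydratase, HIS5 an aminotransferase and HIS2 a phosphatase. Many amino acid synthesis genes in yeast are activated by the transcription factor Gcn4, whose translation rises when amino acids are scarce, and Bas1 with its partner Pho2 activates HIS4 together with purine genes. Set2 methylates lysine 36 of histone H3 in transcribed genes, Cho2 methylates phosphatidylethanolamine on the way to phosphatidylcholine, a reaction that consumes S-adenosylmethionine, and Opi1 represses phospholipid synthesis genes.

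The 3 promoter stretches printed here belong to the gene that varied most (HIS4), the gene that did not move with the others (HIS6) and the gene with no Gcn4 core letters among the 6 windows read (HIS2). Each runs 5′ to 3′ on the strand of its gene, holds 300 bases and ends 50 bases before the start codon (RefSeq genome R64, the assembly of the build sacCer3, with all 3 genes on the minus strand). Capitals mark TGACTC or its reverse complement, the core letters of Gcn4 and Bas1 sites.
HIS4 promoter, chrIII:68384-68683: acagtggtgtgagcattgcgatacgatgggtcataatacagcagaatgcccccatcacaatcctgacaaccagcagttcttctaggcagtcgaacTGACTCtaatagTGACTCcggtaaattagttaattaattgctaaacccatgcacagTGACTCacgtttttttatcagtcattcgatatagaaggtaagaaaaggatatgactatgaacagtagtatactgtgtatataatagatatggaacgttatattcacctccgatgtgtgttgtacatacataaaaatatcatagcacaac
HIS6 promoter, chrIX:314871-315170: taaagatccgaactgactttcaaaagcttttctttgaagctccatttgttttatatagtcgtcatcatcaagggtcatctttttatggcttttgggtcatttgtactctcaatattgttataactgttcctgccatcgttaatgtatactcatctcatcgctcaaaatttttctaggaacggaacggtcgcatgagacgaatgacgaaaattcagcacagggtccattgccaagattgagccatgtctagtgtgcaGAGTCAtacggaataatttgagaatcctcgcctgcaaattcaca
HIS2 promoter, chrVI:204801-205100: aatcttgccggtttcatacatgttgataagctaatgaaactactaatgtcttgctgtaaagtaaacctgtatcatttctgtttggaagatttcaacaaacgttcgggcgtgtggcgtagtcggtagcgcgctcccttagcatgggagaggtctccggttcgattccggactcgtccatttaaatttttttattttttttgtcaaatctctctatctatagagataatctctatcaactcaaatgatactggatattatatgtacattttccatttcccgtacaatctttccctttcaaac

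TGACTC was found on either strand in 5 of the 6 windows read, with 3 places before HIS4, 2 each before HIS3, HIS5 and HIS7, 1 before HIS6 and none before HIS2. Of 5979 windows of the same length before protein-coding genes, 8.06% held these letters at least once and 0.719% at 2 or more places. The 7-letter form TGACTCA, which contains TGACTC, stood before HIS4, HIS5 and HIS7, against 2.81% of all windows. The places before HIS4 began 255, 243 and 199 bases upstream of the start codon, and the single place before HIS6 began 94 bases upstream. CATGTG, the core of the sites bound by Ino2 and Ino4, was in 0 of the 6 windows and in 8.31% of all, and CACGTG, the core of Cbf1 sites, in 0 of the 6 and in 4.03% of all. The HIS4 window includes 85 bases of the neighbouring gene BIK1, that of HIS6 78 bases of FAF1, and that of HIS2 73 bases of the tRNA gene tA(AGC)F. A match describes letters in a window and no measured binding.

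Library totals ran from 7383001 to 9461609 counts, and the 7 genes had between 279 and 6968 counts in every library. Levels are given as FPKM (fragments scaled by gene length and library size) recomputed from the counts with TMM library scaling, so genes of different length can be set side by side. Whether both libraries of a strain came from separate cultures is not stated, so p-values measure only the spread between these libraries, which may be technical. SET2 counts were 0 in the set2 and opi1set2 libraries and 149 to 239 in the cho2, opi1 and WT libraries, but the library labelled cho2set2 replicate 1 held 50 and cho2set2 replicate 2 held 0. CHO2 had 2 to 13 counts in the strains named for its loss against at least 2551 elsewhere, and OPI1 0 or 1 against at least 589. Every statement on cho2set2 therefore rests in part on a library in which SET2 reads were present. WT replicate 1 stood above WT replicate 2 for 6 of the 7 genes, by up to 1.38-fold for HIS4, the widest gap between replicates among these genes.

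HIS4 varied most. Its level was 79.5 and 86.8 FPKM in cho2set2, 165 and 149.9 in opi1set2, 339 and 292 in set2, 62.3 and 64.3 in cho2, 58.5 and 54.2 in opi1, and 114 and 82.7 in WT. The set2 libraries were the highest of the 12 and the opi1set2 libraries came next, while the cho2 and opi1 libraries were the lowest, and the WT range overlapped only that of cho2set2. From the lowest to the highest library HIS4 (YCL030C, chromosome III, 65934 to 68333, build sacCer3) spanned 6.26-fold, against 1.52-fold for HIS2 to 2.07-fold for HIS1 among the other 6 genes.

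HIS6 ran differently. It stood at 50.03 and 46.6 FPKM in cho2set2, 69.1 and 86.5 in opi1set2, 45.6 and 48.3 in set2, 71.4 and 66.2 in cho2, 78.5 and 78.8 in opi1, and 63.9 and 66.5 in WT. Its lowest libraries were the set2 and cho2set2 ones, whose ranges overlapped each other and no other group, and neighbours in the order of opi1, opi1set2, cho2 and WT overlapped. HIS6 (YIL020C, chromosome IX, 314035 to 314820) shares 17 bases with YIL020C-A on the same strand, a row with 6 to 34 counts per library.

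HIS1 (YER055C, chromosome V, 264892 to 265785) had 103 and 101 FPKM in cho2set2, 109 and 122 in opi1set2, 174 and 190.0 in set2, 91.8 and 99.9 in cho2, 100.3 and 104 in opi1, and 125 and 99.3 in WT. The set2 libraries stood apart above the other 10, and opi1set2, WT, opi1 and cho2set2 overlapped as neighbours in the order. The mean was lowest in cho2, whose range overlapped that of WT and of no other group. The dehydratase gene HIS3 (YOR202W, chromosome XV, 721946 to 722608) had 123 and 113 FPKM in cho2set2, 174 and 211 in opi1set2, 218 and 208 in set2, 138 and 126 in cho2, 139.6 and 132 in opi1, and 177 and 148 in WT. Its set2, opi1set2 and WT ranges overlapped as neighbours and stood above opi1, cho2 and cho2set2. HIS3 shares 44 bases with YOR203W, a row with 0 to 2 counts per library and was itself counted in all 12 libraries, with at least 569 counts.

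The aminotransferase gene HIS5 (YIL116W, chromosome IX, 142928 to 144085) had 140.3 and 125 FPKM in cho2set2, 231 and 227 in opi1set2, 218 and 242 in set2, 152 and 142 in cho2, 148 and 138 in opi1, and 184 and 165 in WT. Both strains at the top of its order, set2 and opi1set2, overlapped, WT lay between, and cho2, opi1 and cho2set2 overlapped as neighbours at the bottom. HIS7 (YBR248C, chromosome II, 714807 to 716465) ran from 59.1 FPKM in an opi1 library to 106 in a set2 library, with a median of 72.3. The set2 range was the highest and the opi1 range the lowest, with WT, cho2, cho2set2 and opi1set2 overlapping as neighbours in between. The phosphatase gene HIS2 (YFR025C, chromosome VI, 203743 to 204750) ran from 51.1 to 77.8 FPKM with a median of 61.2, and its set2, opi1set2, WT, cho2set2 and cho2 ranges overlapped as neighbours above the opi1 libraries.

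**Figure D1:**
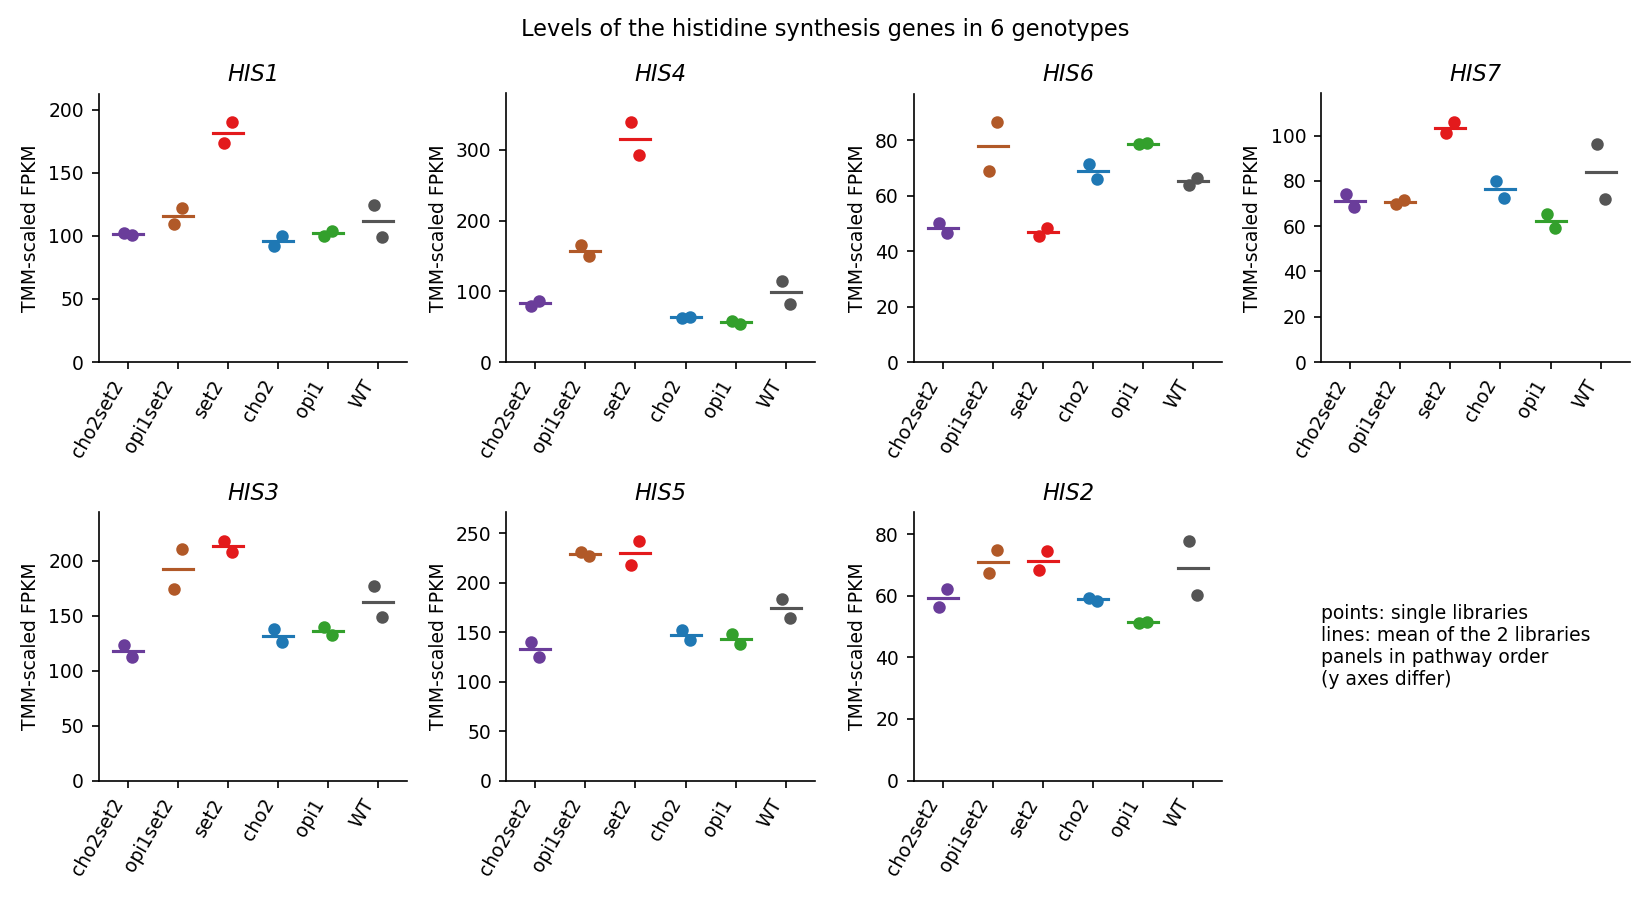
TMM-scaled FPKM (y axis, from 0, with a scale of its own for each gene) of the 7 histidine synthesis genes in the 6 genotypes (x axis), with points for single libraries and lines for the mean of 2 libraries. HIS4 reaches 339 FPKM in set2 and stays below 65 in cho2 and opi1, and HIS6 is lowest in set2 and cho2set2.

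The order of the genes by level also changed. HIS4 had the highest mean of the 7 genes in set2, at 316 ± 32.98 FPKM (SD, n = 2), and HIS6 the lowest, at 47.0 ± 1.92, a 6.72-fold distance between them. In WT the highest was HIS5 with 174 ± 13.5 FPKM and the lowest HIS6 with 65.2 ± 1.81, a 2.67-fold distance, and HIS4 stood in the middle of the order. HIS4 was below HIS6 in all 4 cho2 and opi1 libraries, with ratios of the FPKM levels between 0.687 and 0.972, and above it in the other 8 libraries.

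Loss of SET2 alone was the first comparison, asking which of these genes differ in level after the switch when SET2 is deleted. HIS4 rose to 316 ± 32.98 FPKM in set2, against 98.4 ± 22.1 in WT (SD, n = 2 each), a 3.21-fold rise and a log2 change of 1.68 ± 0.15 (SE; edgeR adjusted p = 3.14e-06). It held rank 171 from the top among all genes ordered by log2 change. HIS1 rose by a log2 change of 0.70 ± 0.13 (adjusted p = 0.000891), with means of 182 ± 11.5 FPKM in set2 against 112 ± 18.0 in WT. Smaller rises were those of HIS5 (0.40 ± 0.12, adjusted p = 0.0197) and HIS3 (0.39 ± 0.13, adjusted p = 0.0326). HIS6 fell, by -0.47 ± 0.14 (adjusted p = 0.0166), its means being 47.0 ± 1.92 FPKM in set2 against 65.2 ± 1.81 in WT.

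HIS7 and HIS2 did not pass in set2: the log2 change of HIS7 was 0.30 (95% interval 0.01 to 0.60, adjusted p = 0.107) and that of HIS2 0.05 (-0.25 to 0.34, adjusted p = 0.820), both by edgeR. In all, 4 of the 7 genes were higher and 1 lower, where 18.5% of all genes counted were higher and 15.9% lower, and the median log2 change was 0.39, against -0.01 over all genes. These are bulk measurements relative to the rest of the transcriptome, so fewer cells using a gene and less RNA per cell cannot be told apart. Without WT replicate 2 only HIS4 and HIS1 passed. Without set2 replicate 1, HIS3 (adjusted p = 0.153) and HIS6 (0.110) were lost, and without set2 replicate 2, HIS3 (0.0733) and HIS5 (0.125), while HIS7 passed without WT replicate 1 (0.0168), all by edgeR.

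The same loss in cells that lack OPI1 gave a similar size for HIS4. It stood at 158 ± 10.99 FPKM in opi1set2, against 56.3 ± 3.08 in opi1 (SD, n = 2 each), a log2 change of 1.48 ± 0.15 (SE; edgeR adjusted p = 3.93e-06). HIS5 (0.68 ± 0.12, adjusted p = 0.000498), HIS3 (0.50 ± 0.13, adjusted p = 0.00692) and HIS2 (0.47 ± 0.14, adjusted p = 0.0140) rose as well. HIS1 (0.17, 95% interval -0.11 to 0.46), HIS7 (0.19, -0.11 to 0.49) and HIS6 (-0.02, -0.31 to 0.27) did not pass. So 4 of 7 genes were higher and 0 lower, where 23.5% of all genes were higher and 20.8% lower, and their median log2 change was 0.47 against 0.01 over all genes. Leaving out opi1 replicate 2 or opi1set2 replicate 2 left only HIS4 and HIS5 past the threshold (adjusted p = 0.057 and 0.071 for HIS3, 0.0592 and 0.0792 for HIS2, by edgeR), and without opi1 replicate 1 HIS2 was lost (0.065). On the FPKM as deposited, which carry no TMM factor, the all-gene median was 0.189, 72.2% of all calls were higher against 53.1% in the scaled fit, and HIS6 had a log2 change of 0.17 and HIS1 one of 0.37 (limma adjusted p = 0.0467).

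In cells that lack CHO2, no histidine gene passed the threshold as higher when SET2 was lost as well. HIS4 stood at 83.1 ± 5.22 FPKM in cho2set2 and 63.3 ± 1.46 in cho2 (SD, n = 2 each), a log2 change of 0.39 with a 95% interval of 0.07 to 0.72 that did not pass (edgeR adjusted p = 0.0950), although the cho2set2 and cho2 libraries did not overlap. HIS6 was the exception among the 7 and fell to 48.3 ± 2.44 FPKM in cho2set2, against 68.8 ± 3.69 in cho2, a log2 change of -0.51 ± 0.14 (SE; edgeR adjusted p = 0.0208). The other 5 genes lay between -0.16 and 0.09. The tally was 0 higher and 1 lower of 7, where 11.3% of all genes were higher and 5.58% lower, and the median log2 change was -0.10 against 0.00 over all genes. Without the library labelled cho2set2 replicate 1 the same gene passed, and without cho2 replicate 1 (adjusted p = 0.152), cho2 replicate 2 (0.0588) or cho2set2 replicate 2 (0.141) it did not. HIS4 passed, by edgeR, when WT replicate 1 or WT replicate 2 was left out of the shared fit (adjusted p = 0.0471 and 0.0472).

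**Figure D2:**
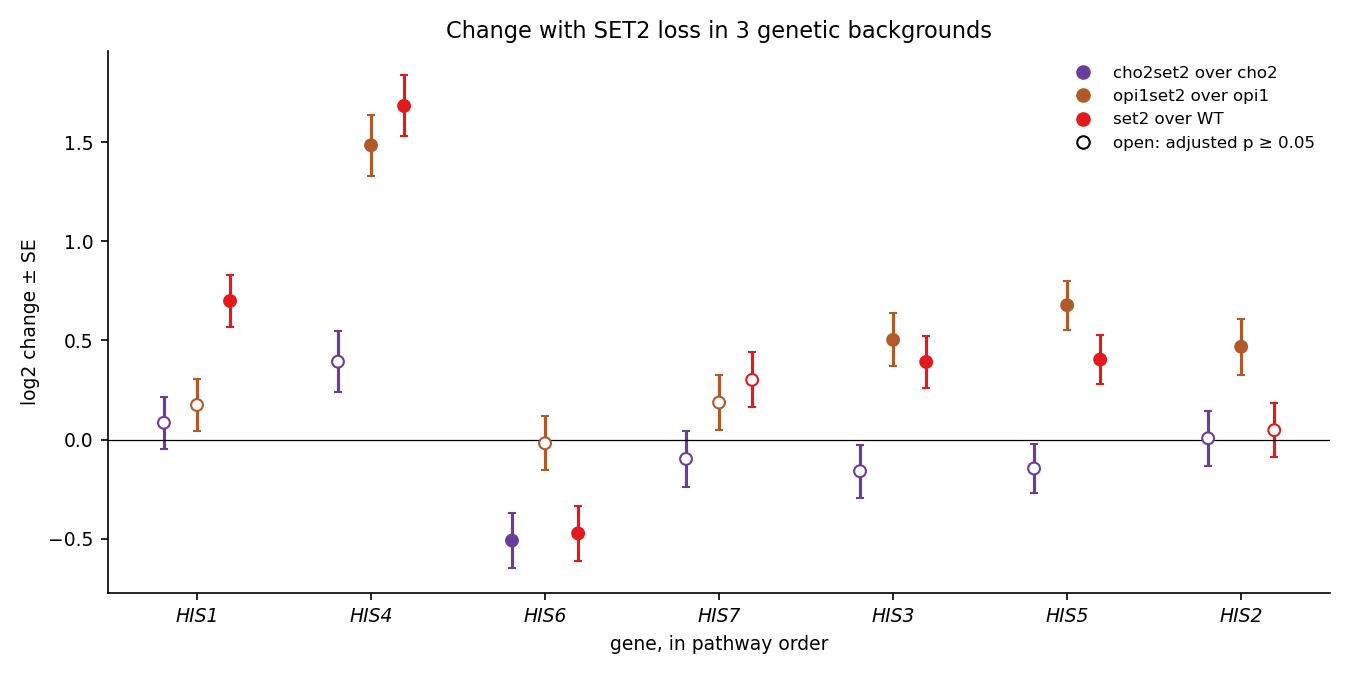
Log2 change ± SE with SET2 loss (y axis) of the 7 genes in pathway order (x axis), in cells lacking CHO2 (cho2set2 over cho2), in cells lacking OPI1 (opi1set2 over opi1) and alone (set2 over WT), 2 libraries per group. Filled points passed adjusted p < 0.05; HIS4 lies at 1.48 and 1.68 in opi1set2 over opi1 and set2 over WT, and at 0.39 in cho2set2 over cho2.

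The differences between these changes were tested directly as interaction terms. For HIS4 the change with SET2 loss was smaller without CHO2 than with it, by a log2 difference of -1.29 ± 0.21 (SE; edgeR adjusted p = 0.00983). It was the only one of the 7 to pass, 1 lower and 0 higher, where 0.547% of all genes were lower and 0.365% higher. HIS1 (-0.61 ± 0.19, adjusted p = 0.172), HIS3 (-0.55 ± 0.19, adjusted p = 0.219), HIS5 (-0.55 ± 0.17, adjusted p = 0.185) and HIS7 (-0.40 ± 0.20, adjusted p = 0.411) had differences in the same direction that did not pass. The differences of HIS6 and HIS2 were both -0.04 ± 0.20. Leaving out the library labelled cho2set2 replicate 1 gave -1.23 for HIS4 (edgeR adjusted p = 0.0774), and leaving out set2 replicate 1 gave -1.18 (0.0903), where the remaining library of that group is assumed to vary like the others.

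For OPI1 the corresponding term of HIS4 was -0.20 ± 0.21 (SE; edgeR adjusted p = 0.602), with a 95% interval of -0.66 to 0.26. By edgeR 0 of the 7 passed, as by DESeq2 and limma, where 2.84% of all genes were higher and 2.63% lower. At an unadjusted p under 0.05 there were 3 of the 7 (HIS1, HIS2 and HIS6), against 24.5% of all genes. HIS1 (-0.52 ± 0.19, adjusted p = 0.102) and HIS6 (0.45 ± 0.20, adjusted p = 0.170) had the largest differences, and HIS6 passed, by edgeR, without opi1set2 replicate 1 (0.61, adjusted p = 0.0452).

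Loss of CHO2 was compared next, first in cells that have SET2. HIS4 stood at 63.3 ± 1.46 FPKM in cho2 and 98.4 ± 22.1 in WT (SD, n = 2 each), a log2 change of -0.64 ± 0.15 (SE) that lay at the threshold (edgeR adjusted p = 0.04998). It was 1 of 7 lower and 0 higher, where 1.47% of all genes were lower and 0.243% higher. HIS3 (-0.30), HIS5 (-0.25), HIS2 (-0.23), HIS1 (-0.23), HIS7 (-0.14) and HIS6 (0.08) did not pass, and the median of the 7 was -0.23 against 0.00 over all genes. The call of HIS4 was lost under 5 of 6 other settings, DESeq2 being the exception, and with any library left out except WT replicate 2 and the opi1set2 libraries (adjusted p = 0.064 to 0.329 by edgeR, the last without WT replicate 1, where the log2 change was -0.40).

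In cells without SET2, loss of CHO2 went with lower levels of 5 of the 7 genes. HIS4 fell to 83.1 ± 5.22 FPKM in cho2set2, against 316 ± 32.98 in set2 (SD, n = 2 each), a 3.80-fold difference and a log2 change of -1.93 ± 0.16 (SE; edgeR adjusted p = 4.21e-06). It held rank 86 from the bottom by log2 change. HIS3 (-0.85 ± 0.13, adjusted p = 0.000870), HIS1 (-0.84 ± 0.13, adjusted p = 0.000848), HIS5 (-0.80 ± 0.12, adjusted p = 0.000843) and HIS7 (-0.54 ± 0.14, adjusted p = 0.0278) fell as well. HIS2 (-0.27, 95% interval -0.57 to 0.02) and HIS6 (0.04, -0.26 to 0.34) did not pass. Against these 5 of 7 lower and 0 higher, 3.88% of all genes were lower and 4.01% higher, and the medians were -0.80 for the 7 and 0.01 for all. The HIS7 call was lost by edgeR without set2 replicate 1 (adjusted p = 0.128), set2 replicate 2 (0.110), the library labelled cho2set2 replicate 1 (0.106) or cho2set2 replicate 2 (0.115), and by both limma fits (0.054 and 0.0564). On unscaled FPKM 36.1% of all calls were higher, against 50.9% in the scaled fit.

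Loss of OPI1 in cells with SET2 gave a fall of HIS4 to 56.3 ± 3.08 FPKM in opi1, against 98.4 ± 22.1 in WT (SD, n = 2 each), a log2 change of -0.80 ± 0.15 (SE; edgeR adjusted p = 0.00213). HIS7 (-0.44 ± 0.14, adjusted p = 0.0437) and HIS2 (-0.43 ± 0.14, adjusted p = 0.0478) were also past the threshold. HIS5 (-0.28), HIS3 (-0.26), HIS1 (-0.13) and HIS6 (0.27) were not. That made 3 of 7 lower and 0 higher, where 8.77% of all genes were lower and 8.94% higher, with medians of -0.28 and -0.01. Only HIS4 passed without any 1 of WT replicate 1, set2 replicates 1 and 2, cho2 replicates 1 and 2, and opi1 replicates 1 and 2; HIS7 was further lost without either cho2set2 library (adjusted p for lost calls = 0.0502 to 0.433 by edgeR). On deposited FPKM without TMM scaling the median of all genes lay at -0.142 and 30.0% of all calls were higher, against 50.5% in the scaled fit, and HIS5 was also called lower by both limma fits (-0.42, adjusted p = 0.0463 and 0.0438). HIS2 was not called by DESeq2 (adjusted p = 0.0566).

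In cells without SET2, loss of OPI1 went with lower levels of 3 of the 7 genes and a higher level of 1. HIS4 stood at 158 ± 10.99 FPKM in opi1set2 and 316 ± 32.98 in set2 (SD, n = 2 each), a log2 change of -1.002 ± 0.15 (SE; edgeR adjusted p = 0.000388). HIS1 (-0.66 ± 0.13, adjusted p = 0.00245) and HIS7 (-0.55 ± 0.14, adjusted p = 0.00991) fell with it. HIS6 rose to 77.8 ± 12.3 FPKM in opi1set2, against 47.0 ± 1.92 in set2, a log2 change of 0.73 ± 0.14 (adjusted p = 0.00198). HIS5 (-0.01, 95% interval -0.27 to 0.25), HIS2 (-0.01, -0.30 to 0.29) and HIS3 (-0.15, -0.43 to 0.13) did not pass. The count of 3 lower and 1 higher of 7 stood beside 12.3% lower and 13.5% higher among all genes, with medians of -0.15 and -0.02. Without set2 replicate 2 the HIS7 call was lost (edgeR adjusted p = 0.0574).

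**Figure D3:**
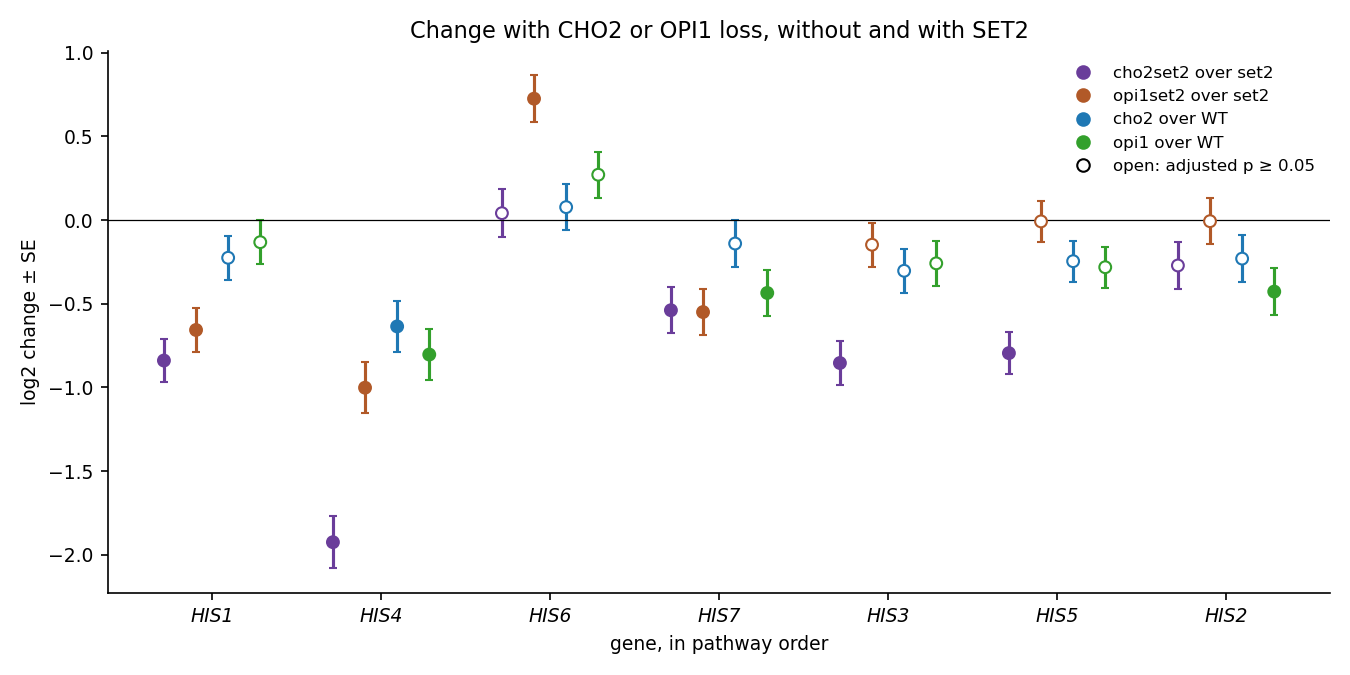
Log2 change ± SE with CHO2 or OPI1 loss (y axis) of the 7 genes in pathway order (x axis), in cells without SET2 (cho2set2 and opi1set2 over set2) and with it (cho2 and opi1 over WT), 2 libraries per group. Filled points passed adjusted p < 0.05; HIS4 is below 0 in all 4 comparisons, from -1.93 to -0.64, and HIS6 is above 0 at 0.73 in opi1set2 over set2.

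Against WT, HIS4 was past the threshold in opi1set2 and not in cho2set2. In opi1set2 it stood at 158 ± 10.99 FPKM, against 98.4 ± 22.1 in WT (SD, n = 2 each), a log2 change of 0.68 ± 0.15 (SE; edgeR adjusted p = 0.00266), and HIS5 rose with it (0.40 ± 0.12, adjusted p = 0.0193). These were 2 of 7 higher and 0 lower, where 21.3% of all genes were higher and 17.9% lower. In cho2set2 HIS4 stood at 83.1 ± 5.22 FPKM and did not pass against WT (-0.24, 95% interval -0.57 to 0.08). HIS3 (-0.46 ± 0.13, adjusted p = 0.0257), HIS6 (-0.43 ± 0.14, adjusted p = 0.0431) and HIS5 (-0.39 ± 0.12, adjusted p = 0.0394) were lower, 3 of 7 and 0 higher, where 6.99% of all genes were lower and 11.6% higher. All 3 of these calls were lost without WT replicate 1 or cho2set2 replicate 2 (adjusted p = 0.085 to 0.251), HIS5 and HIS6 without WT replicate 2 (0.0555 and 0.176), either cho2 library or either opi1 library (0.0513 to 0.0613), and HIS6 also without either set2 library (0.0552 and 0.0555) or the library labelled cho2set2 replicate 1 (0.0777), all by edgeR. In opi1set2 the HIS5 call was lost without WT replicate 2 (0.146) or opi1set2 replicate 1 (0.0532), HIS7 passed as lower without WT replicate 2 (-0.44, adjusted p = 0.0383) and HIS6 as higher without opi1set2 replicate 1 (0.41, adjusted p = 0.0435). The comparisons with WT share both WT libraries, and those with set2 share both set2 libraries.

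Across the 12 libraries the members did not all vary together. As a description over 12 libraries of 6 genotypes, on log2(TMM-scaled CPM + 1), HIS3 and HIS5 were most alike (Pearson r = 0.952, Spearman rho = 0.888), followed by HIS1 and HIS4 (r = 0.905, rho = 0.734). All 15 pairs without HIS6 had positive r, from 0.591 to 0.952. All 6 pairs with HIS6 had negative r, from -0.571 with HIS7 to -0.027 with HIS3. The values with HIS3 and HIS5 (r = -0.032) were near 0, and rho was 0.014 with HIS3 and -0.007 with HIS5.

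The profile averaged over the 7 genes was compared with 5618 other genes of at least 10 FPKM on the same 12 libraries, again as a description, since the libraries share genotypes and scaling. Genes were centred but not scaled to equal spread, so HIS4, which varied most, weighed most in the average. ARG5,6 (r = 0.988), ARG3 (0.988) and LYS2 (0.976) were among the genes closest to HIS4 alone. The genes closest to the average were PCL5 (r = 0.977, rho = 0.916), ORT1 (r = 0.969, rho = 0.888) and HOM2 (r = 0.963, rho = 0.804). PCL5 encodes a cyclin that promotes the breakdown of Gcn4, ORT1 the mitochondrial ornithine transporter and HOM2 an enzyme of homoserine synthesis. ILV1 (r = 0.961), ARG5,6 (r = 0.960), ARG3 (r = 0.958), YMC2 (r = 0.950) and LYS2 (r = 0.937) followed; 4 of these 5 encode enzymes of isoleucine, arginine or lysine synthesis and YMC2 a putative mitochondrial transporter. ARG5,6 overlaps YER068C-A, and the strand setting of the counting is not given in the sources used here.

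The members were set beside 50 other amino acid synthesis genes, a list without histidine genes chosen with earlier results of these data known. In set2 over WT 39 of the 50 were higher (78%, against 18.5% of all genes) and 0 lower (median log2 change 0.99), among them ARG1 (3.48 ± 0.32), LEU9 (2.90 ± 0.22) and ARG3 (2.63 ± 0.26). ARG1 and ARG3 encode arginine enzymes and LEU9 a leucine enzyme that overlaps YOR108C-A. The change of HIS4 (1.68 ± 0.15) was above that list's median and those of the other 6 histidine genes below it. In opi1set2 over opi1 40 were higher (80.0%, against 23.5%) and 0 lower (median 0.96). In cho2set2 over cho2 6 were higher (12%, against 11.3%) and 1 lower (2%, against 5.58%; median 0.17), shares near or below those of all genes. Loss of CHO2 without SET2 gave 0 higher and 38 lower (76%, against 3.88%; median -0.94), and loss of OPI1 without SET2 gave 1 higher and 28 lower (56%, against 12.3%; median -0.57). In cho2 over WT 0 were higher and 3 lower (6%, against 1.47%; median -0.18), and in opi1 over WT 1 and 28 (56% lower, against 8.77%; median -0.70). In cho2set2 over WT there were 3 higher (6%, against 11.6%) and 6 lower (12%, against 6.99%; median -0.02), and in opi1set2 over WT 22 (44%, against 21.3%) and 6 (12%, against 17.9%; median 0.29). The interaction of CHO2 and SET2 loss was lower for 15 of the 50 (30.0%, against 0.547%) and higher for 0 (median -0.80), and that of OPI1 and SET2 loss lower for 0 and higher for 2 (4%, against 2.84%; median 0.09).

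Purine synthesis shares the Bas1 and Pho2 activators and the intermediate AICAR with the histidine chain, and the counts of its 11 genes are given beside the shares of all genes. In set2 over WT 2 were higher (18.2%, against 18.5% of all genes) and 0 lower (median 0.10): ADE3 (0.48 ± 0.15), a folate enzyme, and ADE12 (0.32 ± 0.12), adenylosuccinate synthase. In opi1 over WT 0 were higher and 8 lower (72.7%, against 8.77% of all genes; median -0.58). In opi1set2 over opi1 7 were higher (63.6%, against 23.5%) and 1 lower (9.09%, against 20.8%; median 0.51), where 57.1% of the histidine genes were higher. The 1 lower was ADE16 (-0.71 ± 0.11), which encodes an enzyme that uses AICAR. Cho2set2 over cho2 gave no call (median 0.11), where 11.3% of all genes were higher and 5.58% lower. Cho2 over WT gave 0 higher and 2 lower (18.2%, against 1.47% of all genes), with a median of -0.41. The counts were 0 and 3 (27.3% lower) both in cho2set2 over set2 (against 3.88% of all genes; median -0.34) and in opi1set2 over set2 (against 12.3%; median -0.25), with ADE3 at -1.21 ± 0.16 and -1.22 ± 0.16. Against WT, 0 were higher and 2 lower in cho2set2 (18.2%, against 6.99%; median -0.16), and 0 and 4 in opi1set2 (36.4%, against 17.9%; median -0.13). In the interaction terms 0 passed for CHO2 (median -0.04), where 0.365% of all genes were higher and 0.547% lower. At those shares 0 of 11 does not set these genes apart. For OPI1 1, ADE12, was higher (0.62 ± 0.16), 9.09% against 2.84% of all genes, with a median of 0.14.

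**Figure D4:**
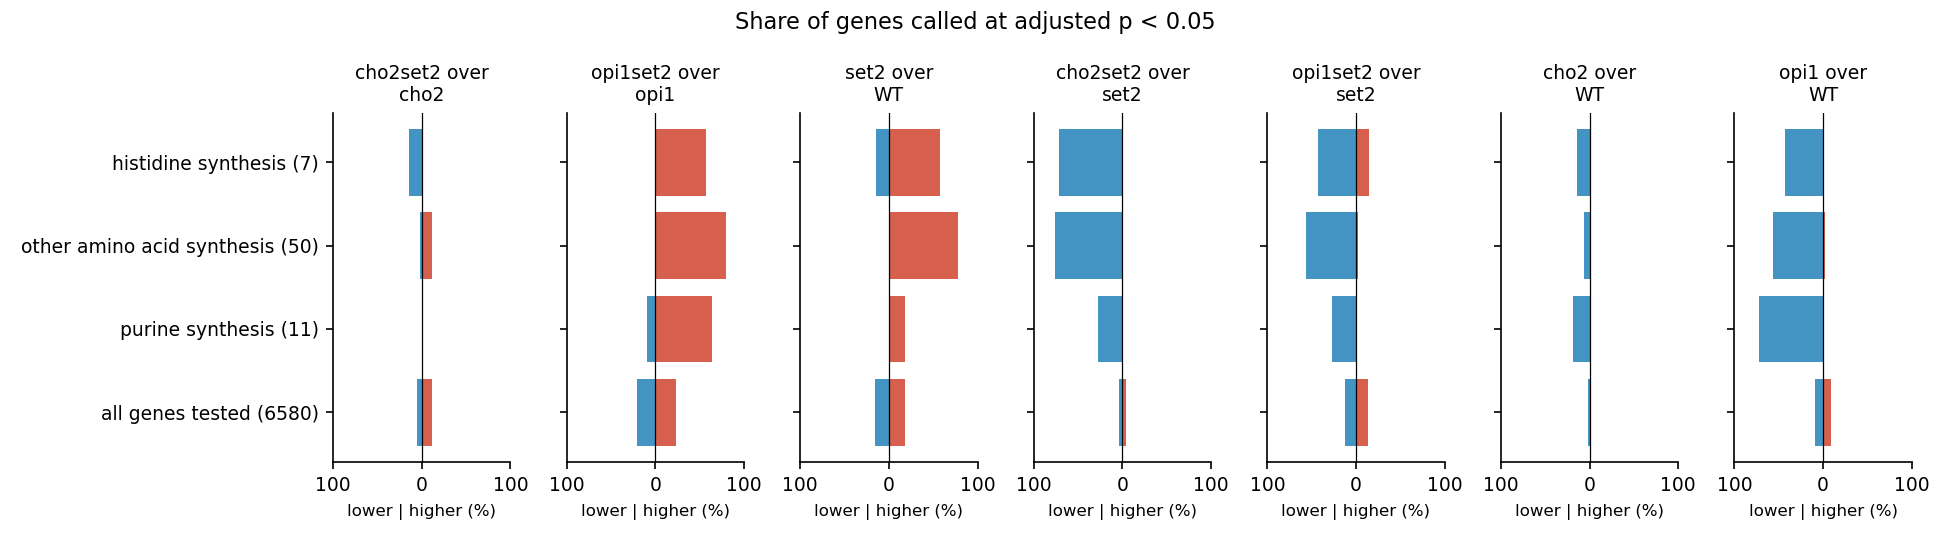
Percent of genes called higher (right of 0) and lower (left of 0) at adjusted p < 0.05 (x axis) in 4 groups of genes (rows, with the number of genes) for 7 comparisons (panels). The histidine genes have 4 of 7 higher in opi1set2 over opi1 and in set2 over WT and 5 of 7 lower in cho2set2 over set2, next to 40, 39 and 38 of the 50 other amino acid synthesis genes.

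Genes of histidine supply and use were taken as the 5 genes of phosphoribosyl pyrophosphate synthetase (PRS1 to PRS5), the histidyl-tRNA synthetase gene HTS1 and the histidine permease gene HIP1, which overlaps YGR190C. In set2 over WT HIP1 (0.77 ± 0.20) and HTS1 (0.44 ± 0.15) rose and PRS2 fell (-0.42 ± 0.14). That made 28.6% of the 7 higher and 14.3% lower, against 18.5% and 15.9% of all genes. Loss of OPI1 with SET2 present gave the opposite sign for HIP1 (-0.77 ± 0.21) and HTS1 (-0.61 ± 0.15). These were the only calls there, 28.6% lower and 0% higher, against 8.77% and 8.94% of all genes. In opi1set2 over opi1 HTS1 (1.26 ± 0.15), HIP1 (1.11 ± 0.21), PRS4 (1.03 ± 0.20) and PRS3 (0.85 ± 0.16) rose and PRS2 fell (-0.67 ± 0.14). Thus 57.1% of the 7 were higher and 14.3% lower, against 23.5% and 20.8% of all genes. In opi1set2 over WT PRS4 (0.97 ± 0.20), PRS3 (0.70 ± 0.15), HTS1 (0.65 ± 0.15) and PRS1 (0.45 ± 0.14) were higher and PRS2 lower (-0.38 ± 0.14). The shares were again 57.1% higher and 14.3% lower, against 21.3% and 17.9% of all genes. PRS4 was the only one of the 7 to pass in opi1set2 over set2 (0.62 ± 0.20), 14.3% higher against 13.5% of all genes. HTS1 was the only one in the interaction with OPI1 loss (0.82 ± 0.22), where 2.84% of all genes were higher. None passed in the 5 comparisons that involve CHO2 loss. There 0.243% to 11.6% of all genes were higher and 0.547% to 6.99% lower, so 0 of 7 does not set these genes apart. PRS5 passed in none.

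The mRNA of GCN4, the activator, passed the threshold in 3 comparisons, all with opi1set2. Its level was 1903 ± 72.6 FPKM in set2 against 1923 ± 226 in WT (SD, n = 2 each; log2 change -0.02, not past the threshold). In opi1set2 it was 2993 ± 599 FPKM, the widest spread of the 6 groups, and in opi1 2230 ± 323. GCN4 was higher in opi1set2 than in opi1 (0.42 ± 0.16, edgeR adjusted p = 0.0409), set2 (0.65 ± 0.16) and WT (0.64 ± 0.16). These 3 comparisons share the opi1set2 libraries, and 23.5%, 13.5% and 21.3% of all genes were higher in them. Gcn4 is controlled at translation, which was not measured. GCN1 and GCN2, which encode the sensor arm upstream of it, rose with SET2 loss in all 3 backgrounds, GCN1 by 0.90 ± 0.14 in cho2set2 over cho2, 1.25 ± 0.14 in opi1set2 over opi1 and 0.98 ± 0.14 in set2 over WT. GCN2 changed by 0.65 ± 0.15, 0.61 ± 0.15 and 0.75 ± 0.15 in the same 3 comparisons, and both were higher in each double mutant than in WT by 0.70 to 0.80. GCN1 was lower in opi1 than in WT (-0.55 ± 0.14).

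PCL5 rose in opi1set2 over opi1 (1.53 ± 0.25) and in set2 over WT (1.11 ± 0.23). It fell in cho2set2 over set2 (-1.87 ± 0.24), opi1set2 over set2 (-0.74 ± 0.23), opi1 over WT (-1.16 ± 0.25) and cho2set2 over WT (-0.77 ± 0.24). BAS1 rose in opi1set2 over opi1 (0.63 ± 0.24) and in set2 over WT (0.75 ± 0.23), while PHO2 fell in opi1set2 over opi1 (-0.47 ± 0.13) and rose in opi1 over WT (0.51 ± 0.13). MBF1, a coactivator of Gcn4, fell in set2 over WT (-0.58 ± 0.14) and was higher in cho2set2 (0.49 ± 0.14) and opi1set2 (0.81 ± 0.14) than in set2. GCN20, a partner of GCN1, was lower in opi1set2 than in set2 (-0.58 ± 0.14) and WT (-0.37 ± 0.14), and so was ABF1 (-0.42 ± 0.14 and -0.54 ± 0.14), a general factor. RAP1, another general factor, passed in none of the comparisons, and none of the 10 regulator genes passed in either interaction term or in cho2 over WT. Among all genes at most 2.84% were higher and at most 2.63% lower in these terms and in cho2 over WT. GCN20 overlaps YFR009W-A and ABF1 overlaps YKL111C.

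The genes next to the members on the chromosome were read as a description of position, 14 in all, of which 13 were tested. In set2 over WT 4 of these 13 were higher and 1 lower, where 18.5% of all genes were higher and 15.9% lower. Next to HIS4, RRP7 (-0.30 ± 0.11, adjusted p = 0.0588 by edgeR) and BIK1 (-0.18 ± 0.16) did not pass, and next to HIS6 neither RPB3 (-0.05 ± 0.15) nor FAF1 (-0.10 ± 0.17) did. Both neighbours of HIS3, MRM1 (0.62 ± 0.20) and DED1 (0.60 ± 0.22), rose, as did both neighbours of HIS7, ENP1 (0.84 ± 0.29) and the aromatic amino acid gene ARO4 (1.54 ± 0.17). ARO4 is also 1 of the 50 amino acid synthesis genes. GIP2, next to HIS1, fell (-0.88 ± 0.19), and on the other side of HIS1 FCY2 did not pass (0.60 ± 0.23). MRM1, DED1 and RPB3 overlap other genes.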

How the data were processed

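The deposited table holds counts per gene and FPKM, and per the submitters' processing notes cutadapt 1.9.1, HISAT2 2.0.1 and HTSeq 0.6.1 were used with the build sacCer3. Their settings, among them the strand setting, are not given in the sources used here. The FPKM deposited by the authors were recomputed from their counts and gene lengths to within 0.005. Libraries were grouped by the labels' genotype.

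One edgeR 4.0.16 quasi-likelihood fit of the counts (R 4.3.3, TMM scaling, factors 0.897 to 1.08) had 1 mean per genotype over all 12 libraries. Genes with at least 1 FPKM in at least 2 libraries were tested, 6583 in all, with Benjamini-Hochberg adjustment over all of them and a threshold of 0.05. Counts over all genes leave out SET2, CHO2 and OPI1. SE is the size of the log2 change divided by the square root of the quasi-likelihood F, and intervals are at 95%. Interaction terms are the change with SET2 loss in the lipid mutant minus that in WT. The script was tested on simulated data, with 200 genes changed in set2 over WT. It recovered 35.6% of 1.5-fold, 83.3% of 2-fold and 98.6% of 4-fold changes. In the data 2263 genes were called in set2 over WT, far more than were changed in the simulation. These rates therefore describe the simulation and not the real comparison. Changes near 1.5-fold or smaller can still fail to pass.

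Alternatives were DESeq2 1.42.0, its size factors (RLE) in edgeR, no filter, limma 3.58.1 on log2(FPKM + 1) and log2(FPKM + 0.1), a replicate block, and each library left out. Promoters come from RefSeq R64, where 99.1% of 6048 matched genes had the same coordinates as the table; the window before HIS1 is not reported here. The genes, lists and tests were chosen with earlier results of these data known. Named were all 7 histidine genes, all supply, use and regulator genes, up to 3 of the largest called changes of the other lists, chromosome neighbours, and the 8 genes most alike in profile.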

Additional observations from a re-analysis of the deposited data

Results flagged for a closer look

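The change of HIS4 with SET2 loss differed between cells without and with CHO2: it was 0.39 ± 0.15 on the log2 scale in cho2set2 over cho2 and 1.68 ± 0.15 in set2 over WT. The interaction term that tests this difference was -1.29 ± 0.21 (SE; edgeR adjusted p = 0.00983; 2 libraries per group). Leaving out the library labelled cho2set2 replicate 1, which held 50 SET2 counts, gave -1.23, and leaving out set2 replicate 1 gave -1.18. The call was lost in both of these fits. It was also lost by limma on log2(FPKM + 0.1) with all libraries (-1.31, limma adjusted p = 0.0585).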

How the results depend on the processing

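Of 1386 values of the histidine genes under the alternatives, 1256 kept their direction and their side of the threshold, 85 lost a call, 10 gained one and 35 changed sign, all 35 of them uncalled. The number of histidine genes called in cho2 over WT was 0, against 1, under RLE scaling, no filter, both limma fits and the replicate block, and 1 by DESeq2. In cho2set2 over WT it was 0, against 3, by both limma fits, and in the interaction of CHO2 and SET2 loss 0, against 1, by limma on log2(FPKM + 0.1). Which property of these fits lost the calls was not tested. With each library left out in turn the number called ran from 2 to 6 in set2 over WT, 0 to 1 in cho2 over WT, 1 to 3 in opi1 over WT, 0 to 2 in cho2set2 over cho2, 2 to 4 in opi1set2 over opi1, 4 to 5 in cho2set2 over set2, 3 to 4 in opi1set2 over set2, 0 to 3 in cho2set2 over WT, and 0 to 1 in each interaction. In opi1set2 over WT the count did not change but the genes did. HIS7, as lower, replaced HIS5 without WT replicate 2, and HIS6 replaced HIS5 without opi1set2 replicate 1.

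Deviations of same-numbered libraries had no common direction: they correlated between -0.329 and 0.329 over 15 pairs of genotypes (median 0.00849). Whether some libraries of different genotypes shared a batch under other numbers was not tested. With the replicate block HIS4 in cho2 over WT (-0.63, edgeR adjusted p = 0.054), HIS2 in opi1 over WT (-0.43, 0.0632) and HIS6 in cho2set2 over WT (-0.43, 0.0554) were not called. DESeq2 called 183 genes in cho2 over WT (30.6% higher) against 113 by edgeR (14.2% higher), and in the CHO2 interaction 133 (56.4% higher) against 60 (40.0% higher). In the OPI1 interaction it called 629 against 360, and limma on log2(FPKM + 1) 189, of which 73.0% were higher against 51.9% by edgeR. The same limma fit called 18 in the CHO2 interaction.

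Uncalled log2 changes that changed sign were those of HIS2 in cho2set2 over cho2 (-0.009134 under RLE, -0.009144 by DESeq2), HIS6 in opi1set2 over opi1 (0.1721 and 0.1741 by limma) and in cho2set2 over set2 (-0.01721 and -0.01752), and HIS7 in the OPI1 interaction (0.005545 and 0.007173). With single libraries left out, the ranges that crossed 0 were, for HIS1, -0.2977 to 0.02972 in opi1 over WT, -0.3039 to 0.02355 in cho2set2 over WT and -0.1148 to 0.2127 in opi1set2 over WT. For HIS2 they were -0.1255 to 0.2401 in set2 over WT, -0.06652 to 0.07787 in cho2set2 over cho2, -0.08559 to 0.06957 in opi1set2 over set2, -0.1333 to 0.2322 in opi1set2 over WT and -0.234 to 0.1315 in the CHO2 interaction. For HIS6 they were -0.1882 to 0.1359 in opi1set2 over opi1, -0.01196 to 0.09123 in cho2set2 over set2 and -0.09265 to 0.02567 in the CHO2 interaction. For HIS7 they were -0.3413 to 0.07339 in cho2 over WT and -0.3266 to 0.08802 in the OPI1 interaction. HIS5 ran from -0.08197 to 0.07021 in opi1set2 over set2, and in the OPI1 interaction HIS3 from -0.03307 to 0.2432 and HIS4 from -0.438 to 0.02273.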
